A study of Mus musculus with 2 samples.

Results

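CD301b-high type 2 conventional dendritic cells (cDC2s) were the cells placed in the top class by the amount of bound CD301b antibody. Their members were all cells carrying that class name in the deposited expression data, which gave 3600 of 11067 cells. They comprised 707 of the 3471 cells of a naive library and 2893 of the 7596 cells of a papain library. The series holds mRNA and values of 12 surface antibodies of the same single cells (CITE-seq) from skin-draining lymph nodes of B6 mice. The naive mice received no immunization, and the papain mice received ovalbumin with the protease papain in the footpads 1 day before the lymph nodes were taken. Before capture, both were sorted as live MHC-II-high, CD11c+, B220- cells. There was 1 library per condition, so no comparison here carries a test. The methods name popliteal lymph nodes for the papain mice and pooled skin-draining nodes for the naive mice, whereas the labels' protocol names popliteal nodes only, so condition and lymph node site cannot be told apart.

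Conventional dendritic cells carry antigen from the skin to the draining lymph node along CCR7 ligands and present it to T cells on MHC class II molecules. cDC1s bear XCR1 and are specialised in cross-presentation, cDC2s bear CD172a (SIRPα), and Langerhans cells (LCs) come from the epidermis and bear EpCAM (CD326). CD301b is the C-type lectin MGL2, encoded by Mgl2, which binds galactose-type sugars. It marks dermal cDC2s known for their part in type 2 T helper responses to protease allergens and helminths.

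Each surface protein was read through a DNA barcode attached to its antibody. The barcodes below are those of the antibodies that decided or checked the class, shown whole because each defines what was counted, and all letters are in lower case because no base within them is singled out.
CD301b: cttgccttgcgattt
CD172a: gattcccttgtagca
I-A/I-E (MHC class II): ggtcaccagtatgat
XCR1: tccattacccacgtt
CD326: acccgcgttagtatg
CD11b and CD24: tatatctttgccgca
The last barcode is listed for both CD11b and CD24, so no value of either is given here as a marker. Both still enter the geometric mean over all antibodies of a cell, to which each antibody value is relative.

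The antibody values are natural logs relative to the geometric mean of all 12 antibodies in the same cell. CD301b in CD301b-high cDC2s ran from 1.65 to 3.79 with a median of 2.13 in the naive library, and from 1.65 to 4.70 with a median of 2.27 in the papain library. The nearest cells on the other side of the border, in the CD301b-intermediate class, had 1.64 in both libraries. These values chose the members and are given as a description. The classes below had CD301b medians of 1.19 and 1.22 (intermediate) and 0.291 and 0.321 (low) in the naive and papain libraries. Median CD172a, the cDC2 protein, was 1.75 and 1.99 in CD301b-high cDC2s against 0.123 and 0.197 in cDC1s. XCR1 had medians of 0.111 and 0.0655 and CD326 of 0.387 and 0.394, against 1.26 and 1.13 for XCR1 in cDC1s and 3.42 and 3.396 for CD326 in LCs. The medians of CD172a, XCR1 and CD326 in the members thus lay apart from those of cDC1s and LCs, classes that the authors had drawn with the same antibodies.

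The CD301b-high cDC2s held 11419102 (naive) and 50572150 (papain) UMIs, which count unique mRNA molecules, with medians of 15167 and 16181 UMIs per cell. Median depth in the other classes ranged from 10768 to 15807 in the naive and from 11351 to 18290 in the papain library. Levels are CPM, UMIs of a gene scaled to 1e+06 of the UMIs summed over a class, ratios are log2 ratios of CPM with 1 CPM added, and a gene was counted as higher or lower past 1.5-fold if it reached 20 CPM in the higher group. The 95% intervals in brackets are exact Poisson intervals for levels, exact conditional binomial intervals for ratios (without the added CPM) and Clopper-Pearson intervals for shares of cells. They cover counting error only, with each UMI taken as independent, and not the spread between cells or between mice. The libraries shared 2 cell barcodes, of which 1 was CD301b-high in both. Markers of other cells were summed over each list in the naive and then the papain members: 13 T cell genes gave 166 and 159 CPM, 10 B cell genes 28.1 and 8.29 CPM, 8 NK cell genes 6.74 and 2.49 CPM, 12 macrophage and monocyte genes 714 and 105 CPM, and 8 plasmacytoid DC genes 528 and 675 CPM. No T or B cell marker of these was at 0, 3 NK cell markers were at 0 in papain members and 1 macrophage and monocyte marker in naive ones.

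**Figure D1:**
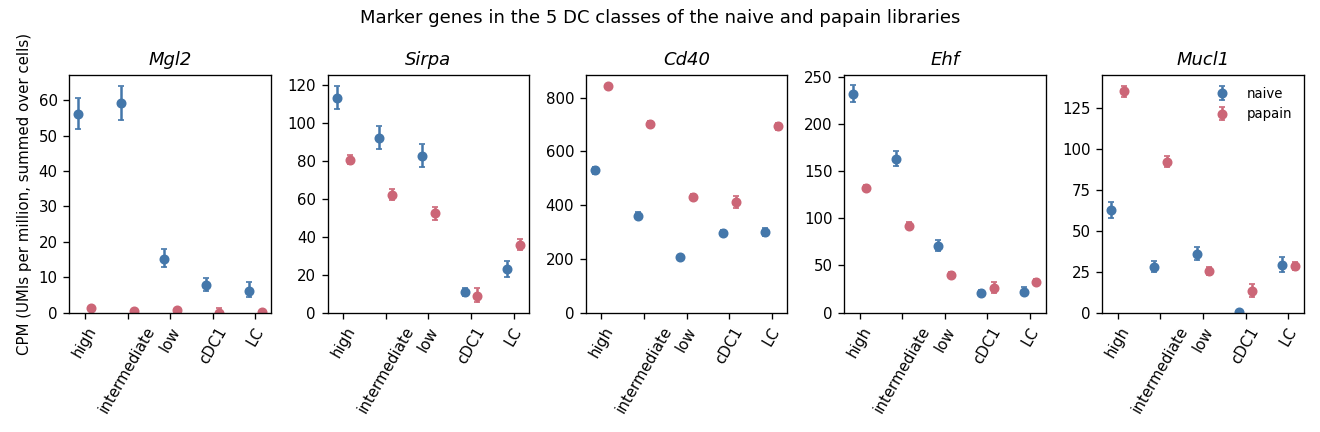
Levels of the marker genes, chosen with earlier results of these data known, in the 5 DC classes of each library. The y axis is CPM on a linear scale for each gene, the x axis names the class, and each point is 1 class of 1 library with its exact Poisson 95% interval; Sirpa, Cd40, Ehf and Mucl1 were highest in CD301b-high cDC2s in both libraries, while Mgl2 was at 56.1 CPM in the naive and 1.21 CPM in the papain CD301b-high cDC2s.

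Of the genes named as markers of these cells, Sirpa, which encodes CD172a, stood at 113 CPM in naive and 80.8 CPM in papain CD301b-high cDC2s, against 10.7 and 8.79 CPM in cDC1s. Ehf, an ETS-family transcription factor, stood at 232 and 132 CPM, and the costimulatory receptor gene Cd40 at 529 and 844 CPM. Mucl1, a mucin-like gene, stood at 62.5 and 135 CPM. All 4 were highest in the CD301b-high class in both libraries. The markers were chosen with earlier results of these data known, so this order is a description. Mgl2, the gene of the protein that defines the class, did not follow this order. It stood at 56.1, 59.1 and 15.2 CPM in the naive CD301b-high, CD301b-intermediate and CD301b-low cDC2s, and at 1.21, 0.476 and 0.831 CPM in the same classes of the papain library. The classes were cut on the surface protein, so it separates them by construction. The mRNA of its gene was nearly absent from all 3 of these classes in the papain library.

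Mgl2 mRNA was held by few cells that carried the protein. In the naive library 38 of 707 CD301b-high cDC2s had at least 1 Mgl2 UMI, or 5.37% (4.73% after every cell was thinned to 8392 UMIs, which left out 55 cells). In naive cDC1s, which bound little CD301b antibody, the share was 2.25% at a median depth of 15807 UMIs. In the papain library 28 of 2893 CD301b-high cDC2s had an Mgl2 UMI, or 0.968%, and 0 of 235 cDC1s did, which by the limit of 3 counts allows a share of up to 1.28% of cells with a UMI. Of the naive Mgl2 UMIs in CD301b-high cDC2s, 99.1% lay in the 39 cells that the authors' mRNA clustering had put in cluster 5 of that library. These cells made up 5.52% (3.95 to 7.46%) of the class.

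The 39 CD301b-high cells of naive cluster 5 differed from the other naive CD301b-high cDC2s in the genes below, which were chosen after their levels were seen. The clusters were made from the mRNA of these cells, so their levels are a description and carry no test, and numbers were given to clusters separately in each library. Mgl2 was at 703 CPM (650 to 760) in cluster 5 and at no more than 0.85 CPM in clusters 1 to 4, with 1 UMI in the 26 cells of cluster 6. Lyz2, lysozyme, was at 6766 CPM, Ccr2, the receptor for the monocyte chemokine CCL2, at 441 CPM and Cd209a, another C-type lectin, at 403 CPM. H2-Ab1, the MHC class II beta chain, was at 8714 CPM in cluster 5 and between 522 and 1810 CPM in clusters 1 to 4 and 6, and Il1b, the inflammatory cytokine gene, was at 3229 CPM. In the other direction Ccr7, the lymph node homing receptor, was at 769 CPM against 4020 to 5032 CPM, and Fscn1, the actin bundler of mature DCs, was at 204 CPM. Thus these cells were high in Mgl2, Lyz2, Ccr2 and class II mRNA and low in Ccr7 and Fscn1.

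On the surface the cells of naive cluster 5 bound CD301b antibody much as the rest did. Their median CD301b was 2.04, against 2.18 and 2.19 in clusters 1 and 2, which held 286 and 206 of the 707 cells. Their median MHC class II antibody value, 4.89, was the lowest of the naive clusters, whereas their H2-Ab1 mRNA was the highest. Their median CD11c, 3.74, was the highest. Among the CD301b-intermediate and CD301b-low cDC2s, 64 and 143 cells lay in the same cluster, so the class border did not set it apart. In the papain library the highest Mgl2 level was in cluster 9, 67.7 CPM (41.4 to 105) in 21 cells. Counts of genes in the naive comparisons are also given below without the cells of naive cluster 5 in both groups, an alternative chosen after the data were seen, and single ratios are given both ways where stated.

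**Figure D2:**
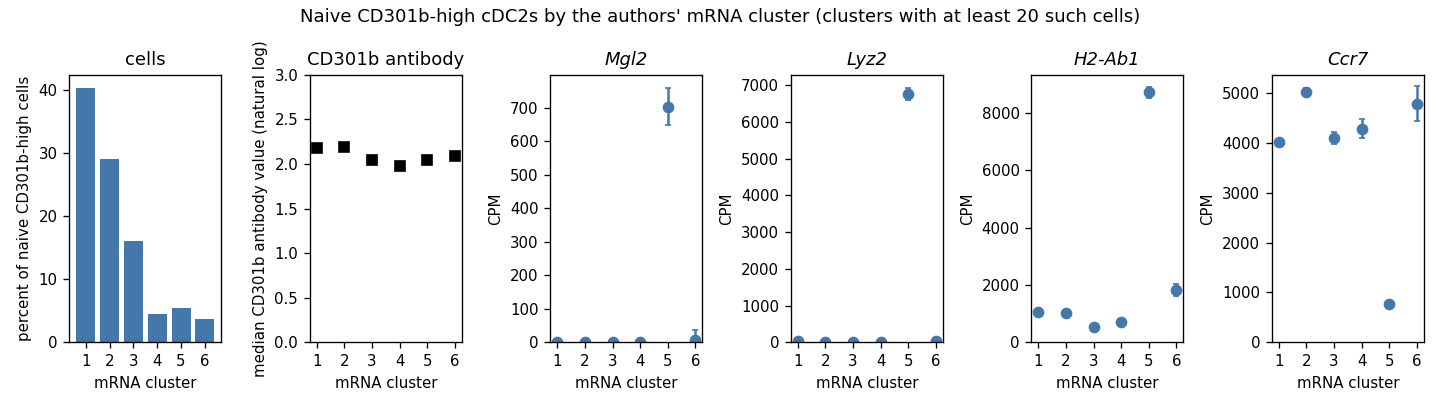
Naive CD301b-high cDC2s in the 6 mRNA clusters with at least 20 such cells: the percent of the class per cluster (bars), the median CD301b antibody value (squares, natural log scale) and the levels of Mgl2, Lyz2, H2-Ab1 and Ccr7 (points, CPM with exact Poisson 95% intervals, linear axes). Cluster 5 held 5.52% of the class, had a median CD301b value of 2.04 close to the others, and stands out with Mgl2 at 703 CPM and Ccr7 at 769 CPM.

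The nearest neighbours of CD301b-high cDC2s were the CD301b-intermediate cDC2s. In the naive library 12 genes were higher past 1.5-fold (0.239% of the 5020 tested) and 28 were lower (0.558%), and in the papain library 5 were higher (0.1% of 5000) and 5 lower (0.1%). Without cluster 5 the naive counts were 28 higher and 18 lower, with 19 of the 40 genes kept, so that the share of higher genes was 60.9% in place of 30%. With the mean over cells of per-cell CPM they were 24 and 24, with 27 kept. The libraries had 1 higher and 2 lower genes in common. Dnase1l3, a secreted DNase that digests DNA in membrane-bound particles, stood at 274 against 160 CPM in the naive and 239 against 137 CPM in the papain library, log2 ratios of 0.78 (0.69 to 0.87) and 0.80 (0.75 to 0.85). Grasp, a scaffold protein of the cell cortex, stood at 33.5 against 53.9 CPM and 43.6 against 75.3 CPM, ratios of -0.67 (-0.88 to -0.50) and -0.78 (-0.88 to -0.70). The gap between these classes was small over almost every gene tested, and Dnase1l3 and Grasp had ratios of similar size in both libraries.

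Other genes of at least 50 CPM were picked for the same direction in both libraries, so their shared direction is by choice. Mucl1 had ratios over the intermediate class of 1.13 (0.96 to 1.36) and 0.55 (0.49 to 0.62) in the naive and papain libraries. Prdm1, the transcriptional repressor Blimp-1, had 0.54 and 0.63, Ptgs2, the prostaglandin-forming cyclooxygenase COX-2, 0.54 and 0.66, Ehf 0.51 and 0.51, and Il1b 0.49 and 0.55. On the low side Ly86, the MD-1 partner of the receptor CD180, had -0.41 and -0.52, and Cd80, the costimulatory ligand of CD28 and CTLA-4, -0.30 and -0.37. The ratios of Mucl1 in the naive library and of Prdm1 and Ptgs2 in the papain library were past 1.5-fold, and the others of this paragraph were not.

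Against CD301b-low cDC2s the distance was wider. In the naive library 280 genes were higher (5.35% of 5230) and 361 lower (6.9%), and in the papain library 202 were higher (3.94% of 5123) and 151 lower (2.95%). Without cluster 5 the naive counts were 217 higher (4.24% of 5112) and 226 lower (4.42%). Of the genes higher past 1.5-fold, 107 were so in both libraries, 38.2% of the naive and 53.0% of the papain genes. Of the lower genes 79 were shared, 21.9% and 52.3%, and none was past 1.5-fold in opposite directions. The intermediate class lay between the high and the low class for 268 of the 280 higher and 350 of the 361 lower genes in the naive library, and for 199 of 202 and 138 of 151 in the papain library. Both ends of this order were fixed by the choice of these genes, and only the place of the intermediate class was not.

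The leading higher gene was Ehf, at 232, 163 and 70.9 CPM in naive CD301b-high, intermediate and low cDC2s and 132, 92.2 and 39.6 CPM in papain ones. Its ratio of high over low was 1.70 (1.59 to 1.84) and 1.71 (1.62 to 1.85), the same size in both libraries although its level was lower in papain cells. Of the CD301b-high cDC2s, 68.2% in the naive library had an Ehf UMI and 54.0% in the papain library, against 13.0% and 17.9% of cDC1s, and after thinning these shares were 59.8%, 42.7%, 8.62% and 11.98%. Cxcl1, a chemokine that draws neutrophils through CXCR2, stood at 291 against 106 CPM in the naive and 514 against 172 CPM in the papain library. Its ratios were 1.45 (1.36 to 1.56) and 1.58 (1.53 to 1.64). Cxcl1 UMIs were in 32.0% of naive and 47.7% of papain members (28.9% and 43.0% after thinning).

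Further genes with higher levels in both libraries were Apol7c, an apolipoprotein L family gene, at 2338 against 843 CPM in the naive library, with ratios of 1.47 (1.44 to 1.51) and 1.38 (1.36 to 1.40). Pvr, the CD155 ligand of the receptors DNAM-1 and TIGIT, had 1.07 (0.98 to 1.17) and 1.19 (1.14 to 1.26). Nup62, a nuclear pore protein, had 1.21 and 1.18, Fxyd2, a regulator of the sodium pump, 1.18 and 1.10, Fgl2, a fibrinogen-like protein, 1.25 and 1.07, and Tubb6, a beta tubulin, 1.21 and 1.04. All of these were higher in CD301b-high than in intermediate cells as well, in both libraries.

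Among the lower genes Grasp led, at 33.5, 53.9 and 143 CPM from the high to the low class in naive cells and 43.6, 75.3 and 181 CPM in papain cells, with ratios of -2.06 (-2.26 to -1.93) and -2.03 (-2.14 to -1.98). Tcf7, a transcription factor best known in T cells, had -1.25 (-1.50 to -1.08) and -1.44 (-1.56 to -1.37). Napsa, an aspartic protease, had -1.21 and -1.33, and Cxcl10, a ligand of the T cell chemokine receptor CXCR3, -1.48 and -1.14. Hist1h2ap, a replication-dependent histone, had -3.30 in naive and -1.22 in papain cells. Grasp was thus the mirror of Ehf, with a ratio of equal size in both libraries.

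**Figure D3:**
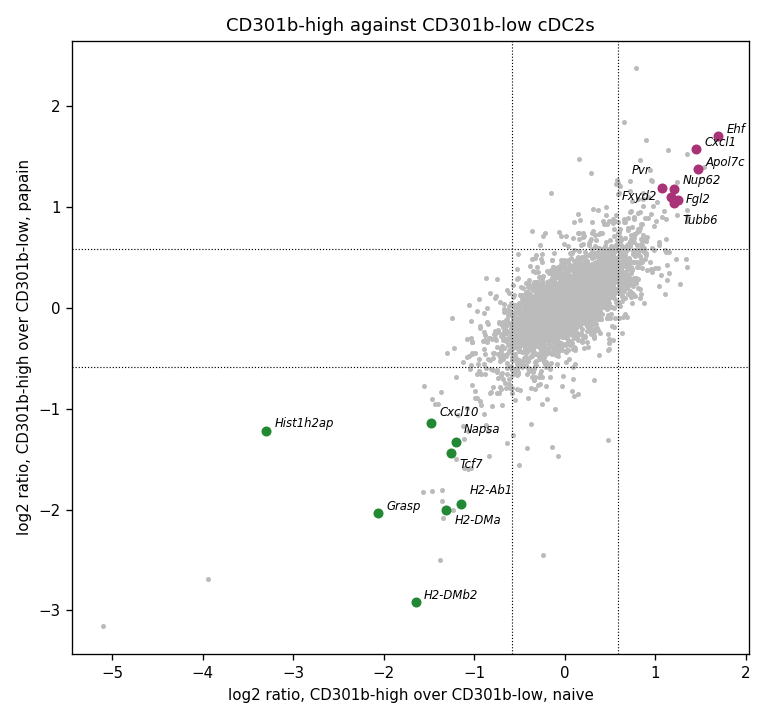
Log2 ratio of CD301b-high over CD301b-low cDC2s for each gene, with the naive library on the x axis and the papain library on the y axis. Dotted lines mark 1.5-fold, grey points are all other genes tested in both libraries, and labelled points are the genes named by the fixed rule; Ehf (1.70 and 1.71) and Grasp (-2.06 and -2.03) lie near the diagonal, and H2-DMb2 (-1.65 and -2.92) and H2-Ab1 (-1.14 and -1.94) lie further out in papain.

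Genes of MHC class II presentation were lower as a group. In each library 9 of them passed 1.5-fold, all of them lower in CD301b-high cDC2s, of 14 tested in naive and 12 in papain cells, with median log2 ratios of -0.99 and -1.40 against -0.04 and 0.01 over all genes tested. The share of all genes that were lower was 6.9% in naive and 2.95% in papain cells. H2-Ab1 stood at 1585 against 3498 CPM in naive and 393 against 1516 CPM in papain cells, ratios of -1.14 (-1.17 to -1.12) and -1.94 (-1.97 to -1.92). H2-DMa and H2-DMb2, subunits of the DM molecule that loads peptide, had -1.31 and -2.01, and -1.65 and -2.92. Ciita, the transactivator of class II genes, stood at 29.6 against 78.4 CPM and 5.20 against 34.1 CPM, and Cd74, the invariant chain, had ratios of -0.33 and -0.81. H2-DMb1 and H2-DMb2 are near-identical, so how their UMIs were split is uncertain. The class II antibody did not show this gap in the naive library, with medians of 5.51 in CD301b-high and 5.42 in CD301b-low cDC2s, and was lower in CD301b-high cDC2s in the papain library, 5.02 against 5.20.

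The class II difference moved with the mRNA clusters. Cluster 5 held 21.7% of the naive CD301b-low and 5.52% of the naive CD301b-high cDC2s. Without cluster 5, H2-Ab1 had a ratio of -0.09 in the naive library in place of -1.14, and 3 of 12 class II genes, Ciita, H2-DMb1 and H2-DMb2, were lower past 1.5-fold in place of 9 of 14. In the papain library, clusters 4 and 7 held 35.9% and 12.9% of the CD301b-low and 1.73% and 2.52% of the CD301b-high cDC2s. When both classes were given the cluster shares of the CD301b-high cDC2s, an alternative chosen after the data were seen, 4 of 13 class II genes in naive and 3 of 11 in papain cells were lower, and H2-Ab1 had -0.46 and -0.49.

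The same weighting separated genes whose ratio went with cluster membership from those that differed inside clusters. It left 232 genes past 1.5-fold in the naive library (641 without it) and 130 in the papain library (353 without it). Of the genes counted without it, 72 higher and 74 lower remained in the naive, and 57 higher and 39 lower in the papain library. Ehf kept ratios of 1.42 and 0.96 and was higher in CD301b-high cells within 5 of 5 naive and 8 of 8 papain clusters that held at least 30 cells of each class. Cxcl1 (0.73 in both libraries) and Apol7c (0.69 and 0.80) were likewise higher within each of these clusters, and Prdm1 (1.02 and 0.80) within 5 and 7 of them. Tcf7 was lower within each of these clusters, with -1.45 and -0.89, and Grasp within all of them but 1 papain cluster, with -1.78 and -0.81. Ehf, Cxcl1, Apol7c and Tcf7 therefore differed between the classes within clusters, by less than the ratios over whole classes except for Tcf7 in the naive library. The CD301b-low class also held more T cell marker mRNA, 303 and 283 against 166 and 159 CPM. The part of lymphocyte transcripts in the Tcf7 ratios within clusters was not tested.

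**Figure D4:**
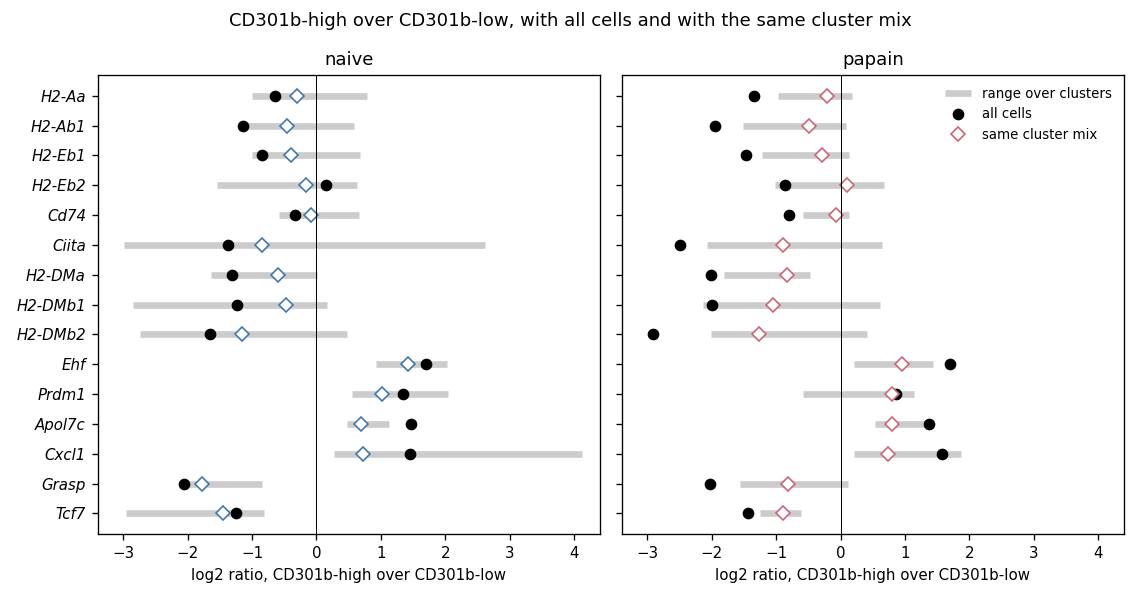
Log2 ratio of CD301b-high over CD301b-low cDC2s for MHC class II and leading genes over whole classes and with both classes given the same mix of mRNA clusters, by library. The x axis is the log2 ratio, dots are whole classes, diamonds the same mix and grey bars the range over single clusters; H2-Ab1 moves from -1.14 to -0.46 in naive and from -1.94 to -0.49 in papain cells, while Ehf moves from 1.70 to 1.42 and from 1.71 to 0.96.

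Of the cytokine list, 2 of 12 genes in naive and 2 of 9 in papain cells were higher than in the CD301b-low class and 3 and 2 lower, where 5.35% and 3.94% of all genes tested were higher and 6.9% and 2.95% lower. Tnf stood at 87.6 against 40.3 CPM and 39.3 against 19.7 CPM, with ratios of 1.10 (0.95 to 1.29) and 0.96 (0.83 to 1.16). Csf1, the macrophage growth factor, had 0.90 (0.70 to 1.18) and 1.66 (1.56 to 1.83). Tgfb1 and Osm, the genes of TGF-β1 and oncostatin M, were lower past 1.5-fold in both. Of the B7 and TNF family list, Tnfsf9, the 4-1BB ligand, had 0.81 and 0.95, while Cd80 had -0.94 and -0.64. Of the list of DC transcription factors, Ehf, Prdm1 and Spic (0.94 and 1.37) were higher and Runx3 (-1.18 and -1.06) and Spib (-0.82 and -0.83) lower in both libraries. Cd200, the ligand of an inhibitory myeloid receptor, had -1.07 and -1.22.

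Chemokine and lipid genes differed in one library more than in the other. Of 13 chemokine genes tested in naive cells, Ccl9, Ccl17, Ccl22 and Cxcl2 were higher and 6 were lower, with Ccl3 at -1.79 and Ccl4 at -2.66 (-2.86 to -2.53). In papain cells 3 of 8 were higher and 1 lower. Without naive cluster 5, 1 of 7 was higher and 2 lower, and Ccl4 stood at 16.6 against 11.5 CPM. Of the cholesterol list, 8 of 14 genes were higher in naive CD301b-high cells, with a median of 0.72 against -0.04 over all genes, and none of 14 in papain cells, with a median of 0.25. Hmgcs1, an early enzyme of the mevalonate pathway, stood at 132 against 67.2 CPM in naive and 122 against 95.1 CPM in papain cells. The synthesis genes Sc5d and Mvd had naive ratios of 0.87 and 0.79. Without cluster 5, 3 of 14 were higher. Over all genes tested against CD301b-low cDC2s, 5.35% in naive and 3.94% in papain cells were higher, and 6.9% and 2.95% lower. The naive shares without cluster 5 were 4.24% higher and 4.42% lower.

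Transcripts of lymphocytes also moved with the CD301b-low class. The 10 B cell markers summed to 118 and 43.7 CPM in naive and papain CD301b-low cDC2s, against 28.1 and 8.3 CPM in the CD301b-high class, and the 13 T cell markers to 303 and 283 against 166 and 159 CPM. None of these markers was at 0. Cells with at least 1 lymphocyte UMI numbered 76 among the naive and 220 among the papain CD301b-high cDC2s, 10.7% and 7.60%. Without all such cells in both classes, 202 genes were higher in the naive library in place of 280. There 188 were lower in place of 361, which gave 390 in place of 641.

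Against cDC1s many more genes differed. In the naive library 914 genes were higher (17.3% of 5276) and 717 lower (13.6%), and in the papain library 800 higher (15.4% of 5187) and 497 lower (9.58%). Without cluster 5 the naive counts were 890 and 719. The median papain ratio over all genes was 0.11, and with that median set to 0 the papain counts became 607 higher and 628 lower, so that the share of higher genes was 49.1% in place of 61.7%. Higher past 1.5-fold in both libraries were 453 genes, 49.6% and 56.6% of each, and lower in both were 286, 39.9% and 57.5%. Sirpa had ratios of 3.29 (3.11 to 3.71) and 3.06 (2.66 to 3.80), as the class name implies. Gpr183, the oxysterol receptor EBI2 that guides cells within lymph nodes, stood at 343 against 38.3 CPM and 540 against 42.0 CPM. Ccl17, a ligand of the type 2 T cell receptor CCR4, had 2.74 (2.64 to 2.89) and 2.80 (2.66 to 2.96), and Egr1, an immediate early transcription factor, 2.77 and 3.34.

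The genes lowest against cDC1s were close to absent in CD301b-high cDC2s. Asprv1, an aspartic protease known from skin, stood at 7.09 CPM against 174 CPM in naive cDC1s and 5.40 against 603 CPM in papain ones. Smagp, a small transmembrane adhesion protein, stood at 3.50 and 3.80 CPM against 110 and 67.0 CPM. Laptm4b, a lysosomal membrane protein, had ratios of -3.60 and -3.32, Src, the tyrosine kinase, -3.05 and -3.04, Tm4sf5, a tetraspanin-like protein, -2.64 and -3.17, and Zmynd15 -2.42 and -2.50. Dnase1l3, which set the high class above the intermediate one, was lower than in cDC1s, with 274 against 942 CPM and 239 against 1364 CPM. Of the class II list, 7 of 12 genes in naive and 2 of 9 in papain cells were higher than in cDC1s and none lower, where 17.3% and 15.4% of all genes were higher.

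Against LCs the library made a larger difference. In naive cells 818 genes were higher (15.2% of 5367) and 673 lower (12.5%), and in papain cells 354 were higher (6.72% of 5264) and 306 lower (5.81%). Without cluster 5 the naive counts were 769 and 682. Of the higher genes 256 were shared, 31.3% of the naive and 72.3% of the papain genes, and of the lower genes 175, 26.0% and 57.2%. Ehf had ratios over LCs of 3.33 (3.12 to 3.66) and 1.97 (1.89 to 2.13). Dpp4, the peptidase CD26, stood at 65.2 against 9.03 CPM and 53.8 against 16.0 CPM. Scn2b, a sodium channel subunit, had 2.15 and 1.68, the noncoding gene Gm36161 2.40 and 1.61, and Hmgn3, a nucleosome-binding protein, 1.52 in both. The distance from LCs was thus smaller in papain cells for Ehf, Dpp4 and Scn2b. The LC class itself differed between the libraries. Its CD301b antibody had medians of 0.118 (naive) and 0.108 (papain) but upper quartiles of 0.268 and 0.657. In LCs 8 cDC2 markers summed to 427 and 838 CPM, and 9 LC markers to 977 and 705 CPM. Without the deepest 5% of cells, 820 genes differed in papain cells in place of 660. The part of such LCs in the smaller distance was not tested.

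On the low side Epcam, the gene of CD326, stood at 6.04 against 102 CPM in naive and 4.79 against 156 CPM in papain cells. Grasp was lower than in LCs too, 33.5 against 276 CPM and 43.6 against 276 CPM. Mfge8, which bridges dying cells to phagocytes, had -2.53 (-2.63 to -2.44) and -2.08 (-2.15 to -2.04), Serpinb6a, a serine protease inhibitor, -2.52 and -3.01, and Igsf3 -2.06 and -2.10. Rps4l, a near-copy of a ribosomal protein gene whose UMIs may be split with it, had -2.86 and -2.38. Of the class II list 10 of 12 naive and 7 of 9 papain genes were higher than in LCs, and none lower, where 15.2% and 6.72% of all genes were higher. Across cDC1s, LCs and CD301b-low cDC2s the class II level of CD301b-high cDC2s thus lay below the CD301b-low class and, for most of these genes, above LCs.

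Among the 2288 genes of at least 50 CPM in the higher group of every comparison, 391 were higher and 138 lower in CD301b-high cDC2s than in each of the 4 other classes in both libraries, whatever the size of the ratio. The genes are ranked here by the weakest of their 8 ratios. Mucl1 (0.55), Prdm1 (0.54) and Ehf (0.51) led, followed by Mki67 (0.48) and Txnrd1, thioredoxin reductase (0.45). Pvr (0.40), Csrnp1, a nuclear protein (0.38), Sdc4, the heparan sulfate proteoglycan syndecan 4 (0.37), Dusp2, a phosphatase of MAP kinases (0.36), Tnfaip2 (0.34), Nfkbiz, the nuclear protein IκBζ (0.34), and Cd63-ps (0.34) came next. Cd63-ps is listed as a pseudogene of Cd63, whose reads it may share. For all 12, the weakest ratio was under 1.5-fold. The ratio of Mucl1 over the CD301b-low class in naive cells went from 0.79 to -0.50 when both classes had the same cluster mix, and it was higher within 2 of 5 clusters, whereas in papain cells it went from 2.38 to 1.18, higher within 6 of 8.

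Nfkbiz stood at 681, 520, 373, 147 and 155 CPM in naive CD301b-high, intermediate and low cDC2s, cDC1s and LCs, and at 481, 379, 218, 91.8 and 206 CPM in the same papain classes. Sdc4 stood at 818, 580, 431, 179 and 400 CPM, and at 612, 475, 284, 138 and 463 CPM. Prdm1 stood at 62.4, 42.6, 23.8, 9.80 and 18.6 CPM, and at 52.3, 33.6, 28.4, 11.1 and 21.3 CPM. In both libraries the 3 cDC2 classes held the order of their antibody, and cDC1s were lowest. Lowest against all 4 classes were Grasp (-0.67 at its weakest), the noncoding gene Gm24447 (-0.33), Prnp, the prion protein (-0.28), Msi2, an RNA-binding protein (-0.26), and Gnb4, a G protein subunit (-0.24). Pold4, Tmem150c and Commd3 had -0.19, -0.17 and -0.16.

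Promoters of these genes were searched because NF-κB acts downstream of CD40 and of TNF family receptors. The κB consensus of 10 letters was looked for on both strands from 250 bases before to 50 after the start of each gene in RefSeq (GRCm38.p6), with overlapping matches counted. It was in 1800 of 27025 such windows over all genes (6.66%) and in 164 of 1590 (10.3%) of the genes of at least 50 CPM here. Of the 12 genes higher than all 4 classes, 7 had an entry and 2, Sdc4 and Tnfaip2, held a match. Among the genes named as higher than the CD301b-low class, 4 had an entry and 1, Cxcl1, held a match. Among those named as lower than that class, 5 had an entry and 2 held a match. Of the 8 genes lower than all 4 classes, 6 had an entry and 2 held a match. The windows of the 3 higher genes are printed 5′ to 3′ on the gene's strand with the matching letters in capitals, where Cxcl1 has 2 overlapping matches. A match is a description of the letters.
Cxcl1, plus strand, chr5:90890995-90891294: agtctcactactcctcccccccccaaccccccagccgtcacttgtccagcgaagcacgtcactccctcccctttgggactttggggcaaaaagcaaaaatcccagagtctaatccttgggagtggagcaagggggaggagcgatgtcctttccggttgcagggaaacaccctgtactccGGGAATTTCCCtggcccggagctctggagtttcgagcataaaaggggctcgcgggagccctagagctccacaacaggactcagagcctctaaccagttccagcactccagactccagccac
Sdc4, minus strand, chr2:164443139-164443438: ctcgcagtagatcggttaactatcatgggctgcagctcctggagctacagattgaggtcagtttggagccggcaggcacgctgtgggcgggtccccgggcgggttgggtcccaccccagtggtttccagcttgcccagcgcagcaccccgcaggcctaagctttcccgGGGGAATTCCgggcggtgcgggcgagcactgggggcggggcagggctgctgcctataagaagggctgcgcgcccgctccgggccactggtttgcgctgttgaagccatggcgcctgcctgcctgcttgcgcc
Tnfaip2, plus strand, chr12:111442411-111442710: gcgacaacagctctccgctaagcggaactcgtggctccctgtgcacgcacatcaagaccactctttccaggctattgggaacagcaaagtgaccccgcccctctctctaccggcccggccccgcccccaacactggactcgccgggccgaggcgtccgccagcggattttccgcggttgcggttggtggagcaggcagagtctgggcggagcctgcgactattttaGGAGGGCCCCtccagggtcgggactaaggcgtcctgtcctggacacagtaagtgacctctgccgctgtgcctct

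Papain and naive CD301b-high cDC2s were compared next, 1 library against 1. Leaving out naive cluster 5 removed cells from the naive side only, and all papain cells were kept. In the papain library 556 genes were higher (10.7% of 5201) and 429 lower (8.25%), and without naive cluster 5 they were 541 (10.5% of 5145) and 357 (6.94%). The median ratio over all genes was 0.11, and with it set to 0 the counts became 358 higher and 552 lower, so that the share of higher genes was 39.3% in place of 56.4%. Isg15, an interferon-induced ubiquitin-like modifier, led the higher genes with 223 against 47.9 CPM, a ratio of 2.19 (2.09 to 2.34), and an Isg15 UMI was in 63.4% of papain and 25.04% of naive members (51.1% and 17.2% after thinning). Ikzf4, the transcription factor Eos, stood at 62.9 against 16.8 CPM, and Fabp4, a fatty acid carrier, at 109 against 30.6 CPM. Serpinb1a, an inhibitor of neutrophil proteases, stood at 479 against 166 CPM, and Calcrl, the receptor of the neuropeptide CGRP, at 112 against 38.0 CPM. Leaving out naive cluster 5 gave ratios of 2.19, 1.73, 1.74, 1.42 and 1.43 for these 5 genes.

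Other interferon-related genes with higher levels were Ifi27l2a, at 212 against 63.9 CPM (1.72, and 1.93 without cluster 5), and Ifitm3, a membrane protein that hinders viral entry, at 149 against 49.9 CPM (1.55, and 3.22 without cluster 5). Of 11 interferon-stimulated genes tested, 4 were higher (Isg15, Ifit1, Rsad2 and Bst2, the last 3 with 2.17, 0.68 and 1.07) and 1 lower (Mx1, -0.63), with a median of 0.42. The shares over all genes tested were 10.7% higher and 8.25% lower. Ifit1 stood at 21.6 against 4.03 CPM. In CD301b-low cDC2s, where 12.1% of the 5375 genes tested were higher and 12.2% lower in papain cells, 8 of 14 were higher and 1 lower, with a median of 0.73. The remaining genes named by the rule were Tcirg1, a proton pump subunit (1.64), Mrpl38, a mitochondrial ribosomal protein (1.63), and the little-described Gm4070, Gm12854 and 4930579G24Rik (1.83, 1.78 and 1.48). The interferon-stimulated genes were thus higher in part of the list, with Mx1 in the other direction.

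**Figure D5:**
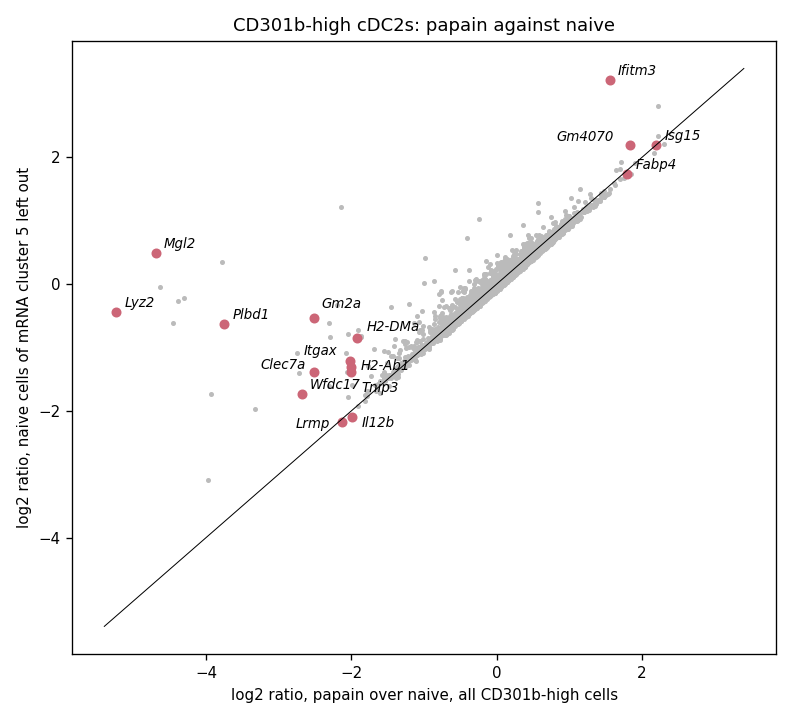
Log2 ratio of papain over naive CD301b-high cDC2s for each gene, with all cells on the x axis and without naive cluster 5 on the y axis; the line marks equal ratios, and labelled points are named genes. Isg15 is at 2.19 both ways, Lyz2 moves from -5.24 to -0.44 and Mgl2 from -4.69 to 0.49 when the 39 cells are left out.

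Several of the genes with the lowest papain ratios rested on the 39 cells. Lyz2 stood at 552 CPM in naive and 13.7 CPM in papain members, a ratio of -5.24, and at 18.9 CPM in naive members without cluster 5, a ratio of -0.44. Mgl2 stood at 56.1 against 1.21 CPM and at 0.57 CPM without cluster 5, so that its ratio went from -4.69 to 0.49. Its levels of 1.21 and 0.57 CPM were near the 1 CPM added to ratios. The 21 members in papain cluster 9, where papain Mgl2 was highest, stayed in. Plbd1, a lysosomal phospholipase-like protein, went from -3.75 to -0.63 and Gm2a, the GM2 activator of lipid breakdown, from -2.51 to -0.53. In the naive library 96.8% of the Lyz2 UMIs of the class were in cluster 5. The 12 macrophage and monocyte markers, of which Lyz2 is one, summed to 714 CPM in naive and 105 CPM in papain members, and the part of such cells in these ratios was not tested. For these 4 genes the papain level therefore lay much nearer to that of the naive members outside cluster 5 than to that of the whole class.

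Other lower genes stayed lower past 1.5-fold without those cells. Il12b, the p40 chain of IL-12 and IL-23, stood at 158 against 39.0 CPM, with -1.99 (-2.11 to -1.93) and -2.10 without cluster 5, and was in 25.3% of naive and 12.6% of papain members. Lrmp, a membrane protein of lymphoid cells, had -2.12 and -2.17. Wfdc17, a secreted antiprotease-like protein, had -2.68 and -1.73, Clec7a, the β-glucan receptor Dectin-1, -2.51 and -1.39, Tnip3, an inhibitor of NF-κB signalling, -2.01 and -1.38, and Itgax, the CD11c chain, -2.02 and -1.22. Ptgs2 stood at 99.7 against 341 CPM (-1.77), and Aldh1a2, which makes retinoic acid, at 22.8 against 88.6 CPM (-1.92, the same without cluster 5). The CD11c antibody had medians of 2.18 in papain and 2.14 in naive members, close to each other where the Itgax mRNA was apart.

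Class II mRNA was lower in papain members. Of 12 genes tested 9 were lower, with a median of -1.26 against 0.11 over all genes, and without naive cluster 5 it was 6 of 9, with a median of -0.85. The share of all genes that were lower was 8.25%, or 6.94% without cluster 5. H2-Ab1 stood at 393 against 1585 CPM, -2.01 (-2.04 to -1.98), or -1.30 without cluster 5. Cd74 stood at 4185 against 8477 CPM and Ciita at 5.20 against 29.6 CPM. Lgmn, a protease of the endosomal pathway, was the only gene of the list past 1.5-fold in the other direction, with 211 against 106 CPM. The MHC class II antibody had medians of 5.02 and 5.51 in papain and naive members. The CD301b-low cDC2s had 8 of 14 class II genes lower and 1 higher (12.2% and 12.1% of all genes), with a median of -0.72.

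Cytokine and costimulation genes went both ways. Il15, Ebi3 (a shared chain of IL-27 and IL-35) and Csf1 were higher, with 0.66, 0.59 and 1.04, and Il1b, Il6, Il12b, Tgfb1 and Tnf lower, of 9 tested. Without cluster 5, Csf1 was higher and Il12b and Tnf lower of 7 tested. Over all genes tested, 10.7% were higher and 8.25% lower, or 10.5% and 6.94% without cluster 5. Cd86, a ligand of CD28, stood at 244 against 123 CPM, Il2ra, the IL-2 receptor alpha chain, at 118 against 52.6 CPM, and Cd200 at 112 against 45.8 CPM. Ccl17 stood at 847 against 418 CPM and Spic, an ETS-family factor, at 95.03 against 34.8 CPM. Jag1, a Notch ligand, had 0.72, and Icosl, the ICOS ligand, -0.67. Ehf itself was lower in papain members, with -0.81 (-0.88 to -0.75), while Mucl1 was higher, with 1.10 (1.00 to 1.22).

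Genes known to respond to handling and the mitochondrial genes also moved with the library. Of 16 immediate early and heat shock genes 7 were lower in papain members, where 8.25% of all genes were (5 of 14 against 6.94% without cluster 5), among them Fos with -1.09, Atf3 with -1.17 and Nr4a1 with -1.06. In CD301b-low cDC2s 10 of 16 were lower, against 12.2% of all genes. Hspa1a and Hspa1b, near-identical copies, had -0.70 and -0.86. Of 8 genes encoded by mitochondria 6 were lower, with and without cluster 5, with mt-Nd2 at -0.60 and mt-Cytb at -0.64. The part of cell handling in any papain ratio was not tested.

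Some papain ratios of CD301b-high cDC2s were unlike those of CD301b-low cDC2s from the same libraries. The following genes are those with the widest gap between both ratios among those of at least 50 CPM, and the gap has no test. The ratios are over whole classes, whose cluster mix differed. Naive cluster 5 held 21.7% of the CD301b-low and 5.52% of the CD301b-high cDC2s. The part of the cluster mix in these gaps was not tested. Rasgef1b, an exchange factor of Ras-like proteins, had -0.86 in the high and -2.18 in the low class, and Egr1 -0.36 and -1.40. Gsn, the actin-severing protein gelsolin, had 0.45 and -0.68. Odc1, the first enzyme of polyamine synthesis, Ccrl2, a chemerin-binding receptor, and Nr4a1 had gaps of 1.04, 0.97 and 0.91 in the same direction.

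In the other direction Cd1d1, which presents lipids to NKT cells, stood at 55.4 against 32.8 CPM in CD301b-high and 138 against 23.2 CPM in CD301b-low cDC2s, ratios of 0.74 and 2.53. Tubb2b, a beta tubulin, had 0.91 and 2.30. H2-Eb2, a class II beta chain, had -1.13 and -0.13, Clec7a a gap of -0.98 and Lad1, an anchoring filament protein, one of -0.96. Lyz2 had a gap of -2.22. Over whole classes, Egr1 and Nr4a1 thus lay nearer to their naive level in the high than in the low class. Cd1d1 had the smaller papain ratio in the high class.

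Within the class, levels of some leading genes were uneven. Mucl1 UMIs were in 31 of 707 naive (4.38%) and 300 of 2893 papain members (10.4%), and the 5% of cells with the most UMIs held 100% and 95.7% of them. In cDC1s the shares of cells with a Mucl1 UMI were 0.865% and 2.55%. Mucl1 stood at 123 CPM in naive cluster 1 and at 314 and 132 CPM in papain clusters 1 and 5. Khdc1a, a KH-domain gene that led against cDC1s (ratios of 3.39 and 3.63) and LCs (3.07 and 2.04), stood at 151 CPM in naive cluster 2 and at 235 CPM in papain cluster 2, where Mucl1 was at 0.995 CPM. Among cells with a Mucl1 UMI, 3 of 31 and 29 of 300 also had a Khdc1a UMI (9.68% and 9.67%), against 17.0% and 23.4% of the other members. Most cells with a Mucl1 UMI thus had none of Khdc1a, and whether the shares differ was not tested.

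Mki67, the proliferation antigen gene, had a UMI in 37.6% (naive) and 55.2% (papain) of members (29.4% and 42.8% after thinning), at 72.2 and 117 CPM. In cDC1s the shares were 14.9% and 10.6%. Top2a, a topoisomerase of dividing cells, stood at 6.39 and 5.003 CPM, and Stmn1, high in cycling cells, at 9.72 and 5.60 CPM, below the 42.4 and 12.9 CPM of CD301b-low cDC2s. Over the 24 genes of the cell cycle list the summed level was 2957 CPM in naive members against 2479 to 2811 CPM in the other naive classes, and 3419 CPM in papain members against 2660 to 3301 CPM. Mki67 and the list sum were thus highest in the members, and Top2a and Stmn1 were not. With the class cut into 3 equal parts by the CD301b antibody, Ehf stood at 185, 237 and 275 CPM from the lowest to the highest part of naive members and at 120, 138 and 136 CPM in papain members. Cd40 stood at 483, 513 and 592 CPM and at 800, 837 and 894 CPM. Mucl1 stood at 10.0, 122 and 53.6 CPM in naive members, with no order. In papain members it fell, with 171, 126 and 108 CPM. Mgl2 stood at 44.7, 79.2 and 43.6 CPM in the naive parts, with no order, although these were cut on the protein it encodes.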

How the data were processed

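Cells were captured with the Chromium 3' v3 chemistry, and the submitters' processing notes name Cell Ranger 3.0.1, the build mm10 and Partek. The authors deposited, per cell, log2 values of UMIs scaled to 1e+06 per cell, plus 1, for 18049 genes. They also deposited counts of expressed genes and of antibody tags, the percent of a cell's values on mitochondrial genes, and a total that is the sum of the log2 values and was treated as a score. The antibody values deposited by the authors are on a natural log scale, namely the log of 1 plus each count (plus 1) over the geometric mean of the 12 antibodies of the cell. CD301b classes and mRNA clusters were the authors' own. Antibody medians are over the cells with an expression profile.

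UMIs were recovered from the log2 values, since the values of a cell are whole multiples of what 1 UMI is worth. In both libraries 100% of the values of up to 50 UMIs came within 0.02 of a whole number. The UMIs recovered were summed over each class of each library and set over the summed totals to give CPM. The genes left out of the deposited table still count in these totals, of which between 81.0% and 97.9% per cell was listed. A gene was tested for size if either group reached 20 CPM. With 1 library per condition no count model was run. Ratios had 1 CPM added.

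Named genes were those of at least 50 CPM in the higher group with the largest ratio in the same direction in both libraries, ranked by the weaker ratio: 8 per direction against CD301b-low cDC2s and 6 against each other class. For papain against naive they were the 12 highest and 12 lowest, and for the gap between CD301b-high and CD301b-low cDC2s 6 in each direction. The members, the 32 gene lists and the rules were chosen with earlier results of these data known. Of the 491 genes in the lists, 455 were found, and the rest are not analysed here. Other genes are named from the lists.

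The sums and intervals were run on simulated Poisson counts. These follow the same counting model as the intervals, so the spread of UMIs between cells was not tested. Doublets were not called here; whether they were removed before deposit is not given in the sources used here, and cells with lymphocyte transcripts and the deepest 5% of cells were left out as alternatives. The alternatives were another pseudocount, another CPM minimum and none, the mean over cells of per-cell CPM, centred ratios, and classes cut as 3 equal parts of the CD301b antibody. Leaving out naive cluster 5 and giving both classes the same cluster mix were added after the data were seen. Python 3.11.15, numpy 2.4.6, scipy 1.17.1 and pandas 2.3.3 were used.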

Additional observations from a re-analysis of the deposited data

Results flagged for a closer look

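In the CD301b-high cDC2s, 20 values had a ratio past 1.5-fold in one direction where the matching group had one past 1.5-fold in the other. None of these differences between groups was tested, since each condition is 1 library. The genes counted had at least 50 CPM in the higher group of both ratios. At 20 CPM the ratio of CD301b-high cDC2s over cDC1s was opposite in the libraries for 6 genes higher and 12 lower in naive cells, and that over LCs for 7 higher and 1 lower.

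Papain over naive ratios (log2) ran opposite to those of cDC1s for 7 genes. Ccl5, a chemokine for T cells, had 0.654 in CD301b-high cDC2s and -0.657 in cDC1s. Cd82, a tetraspanin, had 0.671 and -0.888, Ebi3 0.587 and -0.772, and Gfer, a mitochondrial sulfhydryl oxidase, 0.784 and -0.688. In the other direction Adam19, a membrane metalloprotease, had -1.05 and 0.952, Herpud1, a stress protein of the endoplasmic reticulum, -0.76 and 0.817, and Unc93b1, which brings Toll-like receptors to endosomes, -0.66 and 0.645.

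The ratio of CD301b-high cDC2s over cDC1s took opposite signs in the 2 libraries for 7 genes, of which Adam19, Ebi3 and Gfer are also in the paragraph above. Adam19 had 0.861 in naive and -1.14 in papain cells, and Dpp4 1.19 and -0.676. Ebi3 had -0.741 and 0.617, Gfer -0.774 and 0.698, Insm1, a zinc finger factor, -0.927 and 0.586, Ramp3, a partner of the receptor Calcrl, -0.733 and 1.06, and Rnf19a, a ubiquitin ligase, -0.625 and 0.669.

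Against LCs, papain over naive ratios were opposite for 5 genes. Ccl5 had 0.654 in CD301b-high cDC2s and -0.9 in LCs, and Il21r, the IL-21 receptor, 0.618 and -0.922. Adam8, a membrane metalloprotease, had -0.717 and 0.686, Mtss1, an actin-binding protein, -0.831 and 1.25, and Napsa -1.49 and 0.77. Lgals3, the gene of galectin-3, had a ratio over LCs of 1.01 in naive and -0.68 in papain cells.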

How the results depend on the processing

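The number of genes past 1.5-fold depended mostly on how low genes were treated. It is given first for naive CD301b-high cDC2s against CD301b-intermediate cDC2s, CD301b-low cDC2s, cDC1s and LCs (40, 641, 1631 and 1491 as reported), then for the same in papain cells (10, 353, 1297 and 660), then for papain against naive (985). At a minimum of 100 CPM for the higher group it was 3, 172, 488 and 353, then 2, 108, 375 and 186, then 351. With no minimum it was 1030, 3077, 5062 and 5446, then 114, 1372, 4837 and 2494, then 2608. With 10 CPM added in place of 1 it was 15 and 417 against naive, and 3 and 231 against papain, CD301b-intermediate and CD301b-low cDC2s. The mean over cells gave 17 and classes cut as 3 equal parts of the antibody gave 4 against papain CD301b-intermediate cDC2s, and leaving out cells with lymphocyte transcripts gave 390 against naive CD301b-low cDC2s. The same cluster mix gave 232 and 130 against naive and papain CD301b-low cDC2s. Of the 79 counts recomputed, the other 52 were within 1.5 times of the reported one, among them all 5 without naive cluster 5. Fewer or more genes could be counted by construction under another minimum; otherwise the cause was not tested.

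Of 1100 recomputed ratios of named genes, 749 stayed within the counting interval and 350 moved beyond it. A change of sign was counted only for a reported ratio past 1.5-fold, so smaller ratios that changed sign were not counted apart. Under that rule 1 reversed: Mgl2 in papain against naive cells, from -4.69 to 0.49 without naive cluster 5. Without those cells both Mgl2 levels lay below the 20 CPM minimum, and no papain cells were left out. The 1100 ratios include the same cluster mix only for genes named against CD301b-low cDC2s. Among the other genes given it, those past 1.5-fold that changed sign against CD301b-low cDC2s were Mucl1 (0.79 to -0.50) and March1 (-1.16 to 0.16) in naive and H2-Eb2 (-0.86 to 0.10) and H2-Ob (-1.31 to 0.20) in papain cells. No paired analysis was possible because each condition is 1 library. Over the 160 reported ratios and gaps of named genes, the counting interval was plus or minus 0.13 on the log2 scale at the median and 1.57 at the widest.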

Other observations

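In the papain library, cluster 6 of the authors' mRNA clustering held 104 CD301b-high cDC2s, or 3.59% (2.95 to 4.34%) of the class, with a median of 12057 UMIs per cell. Ccr7 stood at 614 CPM (572 to 659) in these cells, against 2880 to 3591 CPM in papain clusters 1, 2, 3 and 5. Fscn1, at 2054 CPM, and Ccl22, at 1567 CPM, lay nearer to the values of those clusters, which ran from 2230 to 3471 CPM for Fscn1 and from 1525 to 2529 CPM for Ccl22. Il1b stood at 31.0 CPM (22.0 to 42.4) against 420 to 504 CPM, and Mki67 at 2.38 CPM (0.492 to 6.97) against 99.7 to 142 CPM. No Il12b UMI was found in the 104 cells, which by the limit of 3 counts allows up to 2.38 CPM, against 30.1 to 69.8 CPM in the same clusters. Their antibody medians were 2.15 for CD301b, 5.03 for MHC class II and 2.24 for CD11c, within the range of the other papain clusters. These levels describe cells that were clustered on their mRNA, and no test applies to them.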
